A study of Mus musculus with 4 samples.

Results

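The data describe where 2 linker histone antibodies gave ChIP-seq peaks around 10 genes of Nodal and BMP signalling. The genes were chosen by name and for their roles, with earlier results of these data known. They are the ligands Nodal and Bmp4, the extracellular inhibitors Lefty1 and Lefty2, and the signal carriers Smad2 and Smad3. The rest are the inhibitory SMAD Smad7 and the target genes Id1, Id2 and Id3. All 10 were compared with all 21774 protein-coding genes in RefSeq (GRCm38.p6) on the assembled chromosomes. A peak counted for a gene when at least 1 bp of it lay in the gene's RefSeq span or within 5 kb of either end.

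All 4 libraries came from 129S4/SvJae embryonic stem cells of the mouse, overexpressing mouse H1foo fused to GFP, with no other treatment. Linker histones sit on the nucleosome where DNA enters and leaves it, and H1foo is the form made in the oocyte. A rabbit polyclonal antibody prepared in-house against H1foo was used for 2 libraries and AE4, a commercial mouse monoclonal antibody, for the other two, as the measure of somatic H1. No group without the overexpressed H1foo was analysed here, and the sources used here do not state whether AE4 recognises H1foo too. The authors deposited 1 peak list per antibody, with no value per library, so no difference below has a replicate error or a test, and the depth of the libraries is unknown. The H1foo list held 97795 peaks on the assembled chromosomes and the AE4 list 47449. A gene without a peak is a gene absent from that list, not one shown to lack the protein. The lists hold no expression values, so neither the identity of the cells nor the activity of the pathway was checked.

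Nodal is a secreted ligand of the TGF-beta superfamily that signals through activin receptors to phosphorylate SMAD2 and SMAD3. The Lefty proteins block Nodal outside the cell and are themselves induced by it, while SMAD7 blocks the receptors from inside. BMP4 signals through a partly different set of receptors and SMADs and switches on the Id genes. The Id proteins bind basic helix-loop-helix factors and keep them off DNA. In mouse embryonic stem cells, Id proteins are known as the route by which BMP holds back differentiation, and Lefty1, Lefty2 and Smad7 as targets of SMAD2 and SMAD3.

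H1foo peaks lay at 8 of the 10 genes, where 62.6% of all protein-coding genes had one. AE4 peaks lay at 5 of the 10, where 51.0% of all genes had one. Nodal, Lefty2, Smad2, Smad3 and Smad7 had peaks of both lists, a pattern found at 46.8% of all genes. Lefty1, Id1 and Id3 had H1foo peaks and no AE4 peak, 3 of 10 against 15.8% of all genes. Bmp4 and Id2 had neither, 2 of 10 against 33.2%. No gene of the group had AE4 peaks alone, which was the case for 4.24% of all genes. Each of these counts was within 2 genes of what the share over all genes gives for 10 genes. The genes differed from each other in how many peaks they had and of which list.

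In all, 41 H1foo and 13 AE4 peaks lay at the 10 genes. The number of H1foo peaks per gene had a median of 4 in the group and 2 over all genes. For AE4 the medians were 0.5 and 1. Long genes collect more peaks, so each gene is also set beside the genes of its own length class, the protein-coding genes being split into 5 classes of equal size. In the shortest class, up to 4217 bp, 35.2% of genes had an H1foo peak, 13.3% had one and no AE4 peak, and the median number was 0. Lefty1, Id1, Id2 and Id3 belong to this class, and 3 of these 4 had H1foo peaks without an AE4 peak.

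**Figure D1:**
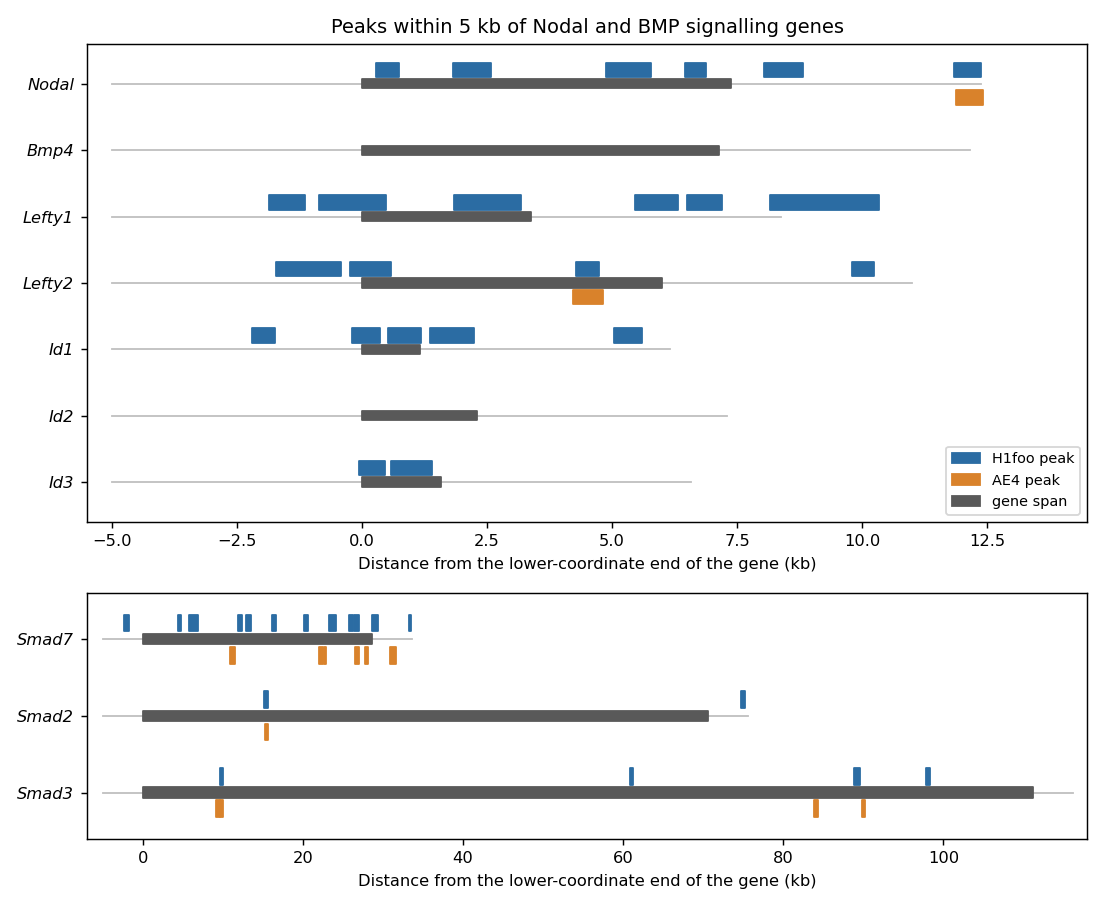
Positions of H1foo peaks (blue, above) and AE4 peaks (orange, below) at the 10 genes, in kb from the lower-coordinate end of each gene. Grey bars are gene spans and thin lines the windows of 5 kb on either side, and a peak that crosses the edge of a window is drawn whole. Bmp4 and Id2 have no peak, while Nodal, Lefty1 and Id1 carry 5 or 6 H1foo peaks in windows under 20 kb.

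Nodal (chromosome 10, 61417972 to 61425338, plus strand) had 6 H1foo peaks, 4 of them inside the gene. The first of these began 290 bp after the start site and had a score of 70.68. A second covered 61419783 to 61420543 with a score of 52.78. The highest of the locus lay deeper in the gene, at 61422850 to 61423746, with a score of 148.9, higher than 89.2% of the list. The fourth inside the gene, at 61424438 to 61424847, had 52.79. Scores are the authors' value per peak from MACS, start at 50 in both lists and serve here to rank peaks within a list. Together these peaks covered 34.1% of the gene, where the median gene of its length class had 6.15%. Of the class, 24.6% had 6 or more H1foo peaks.

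The other 2 H1foo peaks of Nodal lay beyond its 3′ end. One stood in intergenic sequence at 61426015 to 61426792. The other, at 61429814 to 61430340, lay inside the neighbouring gene Eif4ebp2, a repressor of translation initiation. The single AE4 peak of the window, with a score of 73.77, shared 500 bp with this last peak and lay 4502 bp outside Nodal. No AE4 peak touched the Nodal gene itself. A further H1foo peak stood just outside the window, 69 bp beyond its lower edge.

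Bmp4 (chromosome 14, 46383525 to 46390669, minus strand), the BMP ligand of the group, was at the other end of the range. Its window held no peak of either list. The closest H1foo peak was 21.3 kb from the gene and the closest AE4 peak 11.3 kb. Of the genes of its length class, 35.2% had no H1foo peak and 32.4% no peak of either list. The 1 Mb centred on Bmp4 held 6 H1foo and 6 AE4 peaks, where the medians over all genes were 46 and 21, so peaks were few well beyond the gene.

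Lefty1 and Lefty2 are neighbouring inhibitor genes on chromosome 1, 35.9 kb apart. They are close relatives in sequence, and the handling of reads that match both places is not stated in the sources used here, so the placement of peaks between the copies carries that uncertainty. Lefty1 (180935022 to 180938401) had 6 H1foo peaks and no AE4 peak. The strongest, 1351 bp wide at 180934156 to 180935506 with a score of 233.1, crossed the lower end of the gene. It had the highest score of any H1foo peak at the 10 genes and ranked above 96.5% of the list. A second wide peak, 1335 bp at 180936871 to 180938205 with a score of 143.6, lay inside the gene, and the 2 together covered 53.8% of its span. At least as many H1foo peaks as at Lefty1 were present at 7.39% of the genes of its length class.

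The remaining 4 H1foo peaks of Lefty1 lay in its flanks. On the lower side was the peak at 180933172 to 180933892, with a score of 117.2. On the upper side were those at 180940480 to 180941332, at 180941513 to 180942226 and, 2176 bp wide, at 180943181 to 180945356. The last had a score of 208.9 and lay in the neighbouring gene Tmem63a, which encodes a membrane channel protein. It overlapped an AE4 peak of 891 bp, which began 667 bp outside the Lefty1 window and therefore does not count for Lefty1. The lower flank and most of the gene also lie in the lncRNA gene Gm39715, so the peaks there are not peaks of Lefty1 alone.

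Lefty2 (180893108 to 180899107) had 4 H1foo peaks and 1 AE4 peak. One H1foo peak stood below the lower end of the gene and another crossed it, as at Lefty1. The one below, 1306 bp wide at 180891389 to 180892694, had a score of 178.5, and the one that crossed the end, 813 bp wide at 180892875 to 180893687, had 90.6. At Lefty1 the crossing peak was the wider and higher of such a pair. The H1foo peak inside the gene, at 180897380 to 180897852, lay wholly within the AE4 peak at 180897322 to 180897920. The fourth, at 180902904 to 180903343, had a score of 53.26, near the lowest in the list. H1foo peaks covered 17.6% of Lefty2 and AE4 peaks 9.98%.

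The sequence between both Lefty genes was itself rich in H1foo peaks. It held 16 H1foo and 5 AE4 peaks, of which 13 and 5 reached into the part outside both windows. All 5 AE4 peaks there overlapped an H1foo peak. The H1foo peak at 180905385 to 180907026 had a score of 295.3, above every H1foo peak in the 10 windows. The AE4 peak at 180912776 to 180914077 had 153.6, above every AE4 peak in them.

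Smad2 and Smad3, which carry the Nodal signal to the nucleus, are the longest genes of the group. Smad2 (chromosome 18, 76241090 to 76311748) had 1 H1foo peak inside its 70.7 kb, at 76256287 to 76256716, with a score of 56.68. An AE4 peak with a score of 50.57 shared 316 bp with it. A second H1foo peak, with a score of 57.11, stood in the upper flank. All 3 scores were low, at or below the 21.2 percentile of their list. Of the genes of its length class, 60.2% had as many H1foo peaks or more. H1foo peaks covered 0.609% of Smad2 and 0.819% of the median gene of the class.

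Smad3 (chromosome 9, 63646766 to 63757994, minus strand) had 4 H1foo and 4 AE4 peaks, all inside the gene. The first H1foo peak downstream of the start site began 12894 bp from it, at 63744544 to 63745100, with a score of 87.08. The highest, 125.6, was at 63735633 to 63736353, in a part that also holds the lncRNA gene Gm51710. An AE4 peak stood 312 bp from it, at 63736666 to 63736997, without touching it. Near the 3′ end, the H1foo peak at 63656427 to 63656761 lay wholly inside an AE4 peak, and both had scores close to the lowest of their lists, 51.2 and 51.21. A second AE4 peak ended 68 bp before that H1foo peak. Of the 8 genes with peaks, Smad3 was the only one with as many AE4 as H1foo peaks. As many H1foo peaks or more were present at 43.6% of the genes of its length class and as many AE4 peaks or more at 28.5%, where the class medians were 3 and 1. H1foo peaks covered 1.85% of Smad3 and AE4 peaks 1.52%, both above the class medians of 0.819% and 0.420%.

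Smad7 (chromosome 18, 75367365 to 75395935), the inhibitory SMAD, had the most peaks of both lists, 12 H1foo and 6 AE4. As many were present at 15.4% and 13.6% of the genes of its length class. Of the H1foo peaks, 9 lay inside the gene and covered 19.8% of it, against 2.07% for the median gene of the class. The highest H1foo scores were 183.6 at 75390652 to 75391508 and 144.1 at 75373081 to 75374316. The AE4 peaks inside the gene covered 7.95% of it and had scores from 52.72 to 69.88, and the highest AE4 score of the 10 genes, 82.98, was that of the AE4 peak in the upper flank.

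The peaks of both lists were interspersed along Smad7. Only the peaks at 75393766 to 75394340 (H1foo) and 75393818 to 75394313 (AE4) overlapped, the latter lying wholly inside the former. The other 5 AE4 peaks stood 363, 365, 518, 754 and 1522 bp from the nearest H1foo peak. With windows of 5 kb, part of the lower flank lies in the lncRNA gene Gm20544 and part of the upper in Gm41776.

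**Figure D2:**
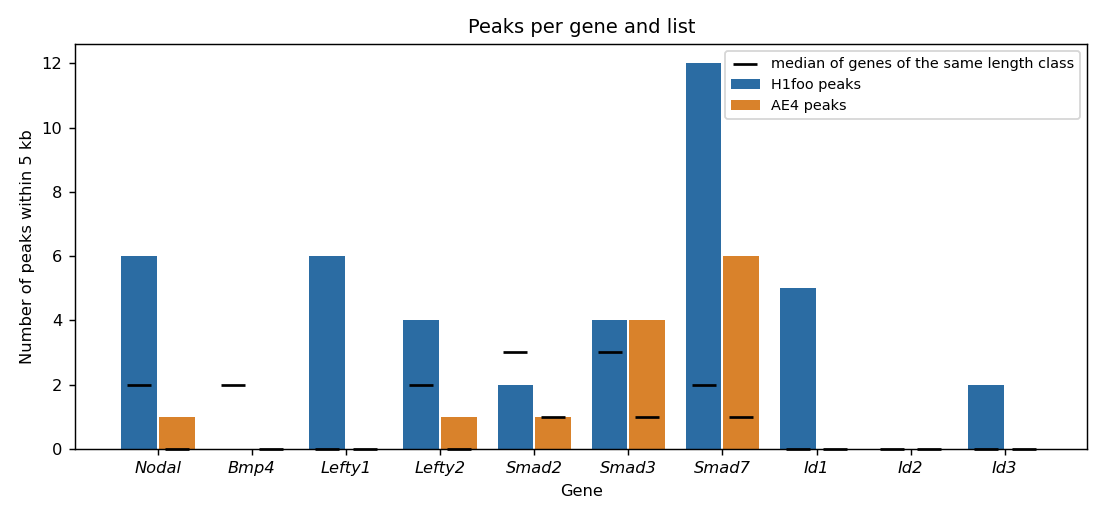
Number of H1foo peaks (blue) and AE4 peaks (orange) within 5 kb of each gene. Black dashes mark the median over all protein-coding genes of the same length class, and stand on the axis where it is 0. Smad7 has 12 and 6 peaks, Lefty1, Id1 and Id3 have H1foo peaks only, and Bmp4 and Id2 have no bar.

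The Id genes are short, similar in role and known as joint BMP targets, and they differed from each other. Id1 (chromosome 2, 152736251 to 152737410) had 5 H1foo peaks and Id3 (chromosome 4, 136143822 to 136145392, plus strand) had 2. Id2 (chromosome 12, 25093799 to 25096092, minus strand) had none, and no AE4 peak lay in any of the 3 windows. The closest AE4 peak was 13.2 kb from Id1, 17.4 kb from Id3 and 42.0 kb from Id2. The closest H1foo peak lay 36.0 kb below Id2, and the next above Id2 was 3527 kb away. Id2 thus stood at the edge of a long stretch without H1foo peaks. Of the genes of this length class, 24.4% had an AE4 peak and 62.3% had no peak of either list.

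At Id1 a pair of H1foo peaks crossed the 2 ends of the gene, at 152736045 to 152736620 with a score of 84.15 and at 152736769 to 152737423 with 53.64. They left 148 bp between them and covered 87.2% of the gene's 1160 bp. The highest score of the locus, 130.7, belonged to the peak at 152737605 to 152738496, just above the gene. The peaks at 152734061 to 152734504 and 152741293 to 152741857, one in each flank, had 50.68 and 66.12. At Id3 the 2 H1foo peaks, at 136143770 to 136144275 and 136144407 to 136145219, had scores of 68.31 and 118.2 and covered 80.6% of the gene. A gene span covered as much or more by H1foo peaks was found at 2.14% of the genes of the class for Id1 and at 3.21% for Id3, and at 0.505% and 0.886% of all genes. These shares depend on length, since few peaks fill a short span. The class runs from 144 to 4217 bp, all genes are of any length, and the median H1foo peak of the list was 560 bp wide.

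**Figure D3:**
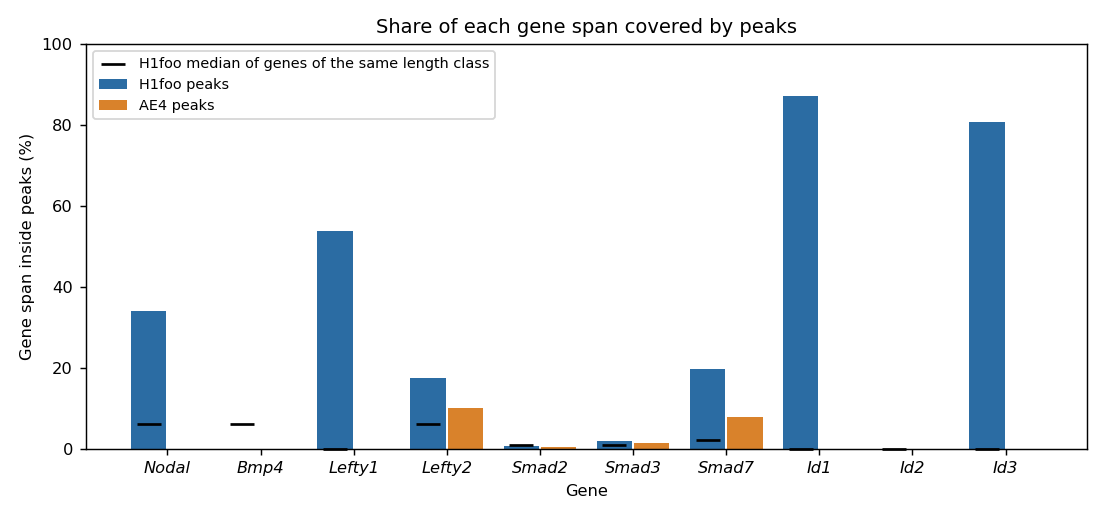
Percentage of each gene span, without flanks, that lies inside H1foo peaks (blue) or AE4 peaks (orange), with black dashes for the H1foo median of all genes of the same length class. Id1 and Id3 stand highest at 87.2% and 80.6%, Lefty1 follows at 53.8%, and Smad2 and Smad3 lie below 2%. Fewer peaks are needed to fill a short span than a long one, and the genes differ widely in length.

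At Id3 an H1foo peak reached across the start site, so that the sequence before the start is shown for this gene, together with that of Id2, a related target with no peak, and of both ligands. RefSeq promoter sequences were matched for 5 of the 10 genes (Nodal, Bmp4, Smad3, Id2 and Id3). For the others, neither strand nor start site was available. H1foo peaks crossed both ends of Id1 and the lower ends of Lefty1 and Lefty2. Id3 is therefore not shown to be the only gene of the group with a peak at its start. Each line gives the 250 bases before the start site, 5′ to 3′ on the strand of the gene, from RefSeq on GRCm38.p6. Capitals mark bases inside an H1foo peak.
Id3, chr4:136143572-136143821, plus strand: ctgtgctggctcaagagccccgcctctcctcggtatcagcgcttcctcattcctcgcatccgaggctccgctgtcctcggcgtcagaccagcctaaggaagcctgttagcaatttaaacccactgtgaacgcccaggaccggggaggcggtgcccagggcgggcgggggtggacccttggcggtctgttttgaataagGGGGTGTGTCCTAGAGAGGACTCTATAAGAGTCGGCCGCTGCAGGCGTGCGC
Id2, chr12:25096093-25096342, minus strand: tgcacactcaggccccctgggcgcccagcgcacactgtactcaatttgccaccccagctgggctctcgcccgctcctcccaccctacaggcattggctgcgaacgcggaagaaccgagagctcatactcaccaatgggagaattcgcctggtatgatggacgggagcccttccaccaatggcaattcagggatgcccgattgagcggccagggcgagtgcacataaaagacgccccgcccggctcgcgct
Nodal, chr10:61417722-61417971, plus strand: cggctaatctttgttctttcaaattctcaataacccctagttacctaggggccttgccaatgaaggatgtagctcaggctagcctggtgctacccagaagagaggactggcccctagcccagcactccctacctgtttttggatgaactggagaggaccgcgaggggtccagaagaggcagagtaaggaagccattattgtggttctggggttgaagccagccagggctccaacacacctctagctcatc
Bmp4, chr14:46390670-46390919, minus strand: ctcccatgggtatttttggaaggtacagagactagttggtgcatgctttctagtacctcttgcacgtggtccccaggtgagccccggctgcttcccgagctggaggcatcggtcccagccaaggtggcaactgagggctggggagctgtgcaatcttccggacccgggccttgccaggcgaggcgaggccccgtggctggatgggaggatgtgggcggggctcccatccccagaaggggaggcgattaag

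The last 52 bases before the Id3 start lay inside the H1foo peak. None of the other 4 sequences, that of Smad3 included, held a base of a peak of either list. Over all 32851 RefSeq promoter windows on assembled chromosomes, each 300 bases long with 50 bases after the start, 12.4% had a base in an H1foo peak and 2.49% one in an AE4 peak. In the 250 bases before the start, G and C made up 62.8% at both Id3 and Id2, 53.2% at Nodal, 63.2% at Bmp4 and 69.2% at Smad3, against a median of 52.4%. Whether the share of G and C differs between promoters with and without a peak was not tested.

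Short sequences known to bind factors of these pathways were looked for on both strands of the same 250 bases. None of the motifs as spelled here contains another. CAGAC, a SMAD half-site, matched at positions -167 and -68 of Id3, counted back from the start site, and at none of the other 4 genes. Both matches lay outside the part inside the H1foo peak. This motif is common and was present in 42.2% of all promoter sequences of this length. GGCGCC, the GC-rich SMAD element of BMP targets, matched once, at position -231 of Id2, and was present in 9.59% of promoters. The E-box CANNTG matched 3 times at Bmp4, once at Id2 and not at Id3, Nodal or Smad3, and was present in 66.2% of promoters. The palindromic SMAD element GTCTAGAC and the FOXH1 element AATCCACA were in none of the 5 sequences, and in 0.167% and 0.718% of promoters. A match is a stretch of letters and not a bound site.

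A minority of the peaks of each list at these genes was shared. Of the 41 H1foo peaks 6 overlapped an AE4 peak, or 14.6% (exact Clopper-Pearson 95% interval 5.57 to 29.2%), against 24.1% of all H1foo peaks. Of the 13 AE4 peaks 5 overlapped an H1foo peak, or 38.5% (13.9 to 68.4%), against 51.2% of all AE4 peaks. Both intervals take in the value of the whole list. They cover counting error only, and take the peaks of a gene as independent, which they are not. Nodal, Lefty1, Lefty2, Smad2, Smad3 and Smad7 each had 1 shared H1foo peak. Of the 8 AE4 peaks that overlapped none, all at Smad3 and Smad7, 6 stood within 1 kb of an H1foo peak, with a median gap over the 8 of 441.5 bp. The 35 unshared H1foo peaks were mostly far from AE4 peaks, with a median gap of 5862 bp and 5 of them within 1 kb. The same gaps were not computed for all unshared peaks of the lists, so they cannot be called particular to these genes. The lists also differ in length, with 97795 H1foo and 47449 AE4 peaks.

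The balance of the 2 lists differed between the short and the long genes of the group. The 7 genes with windows under 20 kb (Nodal, Bmp4, Lefty1, Lefty2, Id1, Id2 and Id3) had 23 H1foo and 2 AE4 peaks. The 3 long SMAD genes had 18 and 11. The ratio of H1foo to AE4 peaks was 11.5 for the short and 1.64 for the long genes, where all protein-coding genes with windows under and over 20 kb had ratios of 2.35 and 2.16. Peaks that lie in several windows count more than once in the values for all genes. Per 10 kb of window, the short genes had 2.33 H1foo and 0.202 AE4 peaks, against 1.42 and 0.604 for all genes with such windows. The split at 20 kb was chosen after the windows and peaks had been seen, and the difference rests on few AE4 peaks and was not tested. With only the 47449 highest-scoring H1foo peaks, as many as in the AE4 list, the short genes had 13 H1foo peaks beside the 2 of AE4 and the long genes 10 beside 11. That count was not made for all genes. With windows of 10 kb, Lefty2, Nodal and Lefty1 had 4, 2 and 1 AE4 peaks beside 8, 11 and 14 H1foo peaks. Id1 and Id3 still had no AE4 peak there. The ratio was not computed for those windows.

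H1foo peaks at the 10 genes were similar in width to the list as a whole and slightly higher in score. Their median width was 575 bp against 560 bp, in a range from 327 to 2176 bp, and their median score 83.33 against 73.22, with 23 of the 41 above the median of the list. The AE4 peaks were 319 to 794 bp wide, with a median of 496 bp against 466 bp for the list. Their median score was 61.69 against 63.79, and 6 of the 13 were above the median of the list. By position, 21 H1foo peaks lay inside one of the genes, 5 crossed a gene end and 15 lay in the flanks. For AE4 the numbers were 11, 0 and 2. Positions were not counted in this way for the peaks at all genes, and flanks make up less of the window at long genes.

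The 2 genes without a peak also had the fewest peaks in their surroundings, while the other 8 did not follow the order of their own counts. In the 1 Mb centred on each gene, the number of H1foo peaks was 6 at Bmp4 and 27 at Id2, both below the median of 46 over all genes. It was 78 at Smad3, 108 at Smad2, 172 at Lefty1, 179 at Smad7, 180 at Lefty2, 194 at Nodal, 198 at Id1 and 242 at Id3. The number of AE4 peaks ran from 6 at Bmp4 and 16 at Id2 to 100 at Id3, with a median over all genes of 21. Id1 and Id3 had 86 and 100 AE4 peaks in their surroundings and none in their windows of 11.2 and 11.6 kb. These windows are a small part of the 1 Mb, and whether they hold fewer AE4 peaks than their surroundings was not tested. The windows of 1 Mb around both Lefty genes overlap almost wholly, and those of Smad2 and Smad7 in part, so their values are not independent. The 1 Mb around Smad2 held 108 H1foo peaks and 2 protein-coding genes, and that around Id2 27 peaks and 7 genes. Over all genes the median number of genes per such window was 16.

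**Figure D4:**
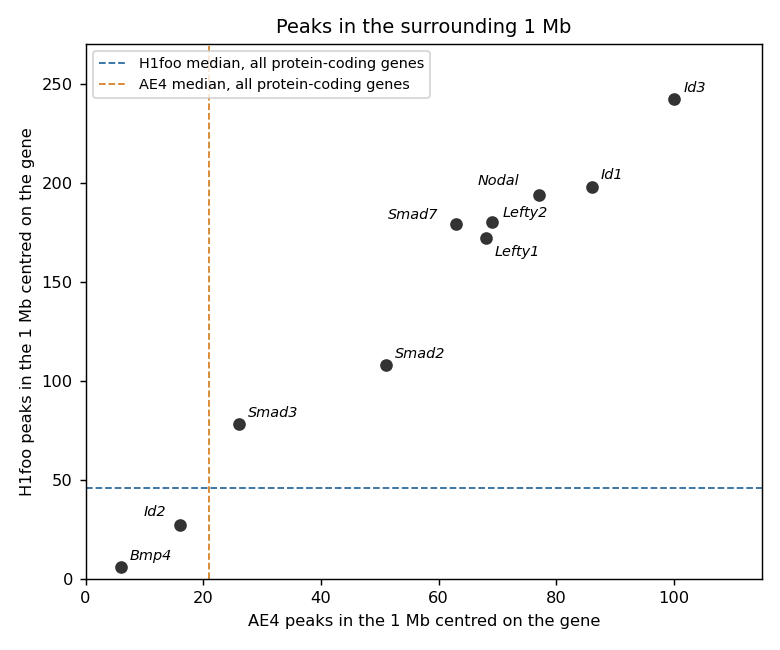
H1foo peaks (vertical axis) against AE4 peaks (horizontal axis) in the 1 Mb centred on each of the 10 genes, with dashed lines at the medians of 46 and 21 over all protein-coding genes. Bmp4 and Id2, the genes without a peak, lie below both medians, and the other 8 lie above both.

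The wider pathway was described with a list of 75 genes, among them the 10. Of these, 58 or 77.3% had an H1foo peak within 5 kb and 46 or 61.3% an AE4 peak, against 62.6% and 51.0% of all genes. The listed genes are longer, with a median of 27.4 kb against 17.2 kb. Of the 65 genes other than the 10 described, 50 had an H1foo peak, 41 an AE4 peak, 40 both and 14 neither. By role, H1foo peaks were present at 12 of 17 ligands, 9 of 12 receptors, 6 of 9 extracellular inhibitors, 5 of 6 signal-carrying SMADs, both inhibitory SMADs, all 10 regulators of SMADs, all 5 SMAD partners and 6 of 10 targets. AE4 peaks were present at 11 of the ligands, 7 of the receptors, 3 of the extracellular inhibitors, 5 of the signal-carrying SMADs, both inhibitory SMADs, 9 of the regulators, 5 of the partners and 2 of the targets. Both convertases had peaks of both lists, and of the 2 co-receptors 1 had an H1foo peak and neither an AE4 peak. Targets and extracellular inhibitors were also the shortest genes of the list, with medians of 4.45 and 6 kb. Regulators and partners of SMADs were long, with medians of 74.0 and 65.9 kb. Over all genes, 73.6% of the longest class had an H1foo peak and 67.7% an AE4 peak. In the shortest class these shares were 35.2% and 24.4%. Whether the roles differ beyond their length was not tested.

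The gene with the most peaks in the list was Zfp423, on chromosome 8, a zinc finger partner of BMP SMADs, with 138 H1foo and 84 AE4 peaks over 300.2 kb. Ski, which represses SMAD activity, followed with 37 and 14, and Smurf1, a ubiquitin ligase for BMP SMADs and receptors, with 35 and 14. The BMP ligand gene Bmp7 had 31 H1foo and 7 AE4 peaks and the convertase gene Pcsk6 22 and 8. The receptor gene Eng, for endoglin, and the BMP carrier Smad1 had 10 AE4 peaks each. The ligand gene Bmp5 was the only one of the 75 with an AE4 peak and no H1foo peak.

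Several further genes were picked after their values were seen, to complete the routes of Nodal and BMP4. On the Nodal route, the receptor genes Acvr1b and Acvr2b had 17 and 13 H1foo peaks and 7 and 4 AE4 peaks. The receptor genes Acvr1c and Acvr2a had no peak of either list. Their surroundings differed too. In the 1 Mb centred on each gene, Acvr1b and Acvr2b had 180 and 177 H1foo peaks, and Acvr1c and Acvr2a 6 and 2. The co-receptor gene Tdgf1 had 1 H1foo peak and no AE4 peak, and the co-receptor gene Cfc1 had no peak of either list. The SMAD partner Foxh1 had 5 H1foo and 2 AE4 peaks. On the BMP route, the receptor genes Bmpr1a, Bmpr1b and Bmpr2 had 1, 1 and 2 H1foo peaks and 1, 2 and 3 AE4 peaks. Smad1 had 15 H1foo and 10 AE4 peaks, and Smad5 had no peak of either list. Smad4, which serves both, had 1 H1foo and 2 AE4 peaks. Smad6, the inhibitory SMAD of the BMP route, had 18 H1foo and 2 AE4 peaks, beside the 12 and 6 of Smad7. Id4, the fourth Id gene, had 1 H1foo peak and no AE4 peak.

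**Figure D5:**
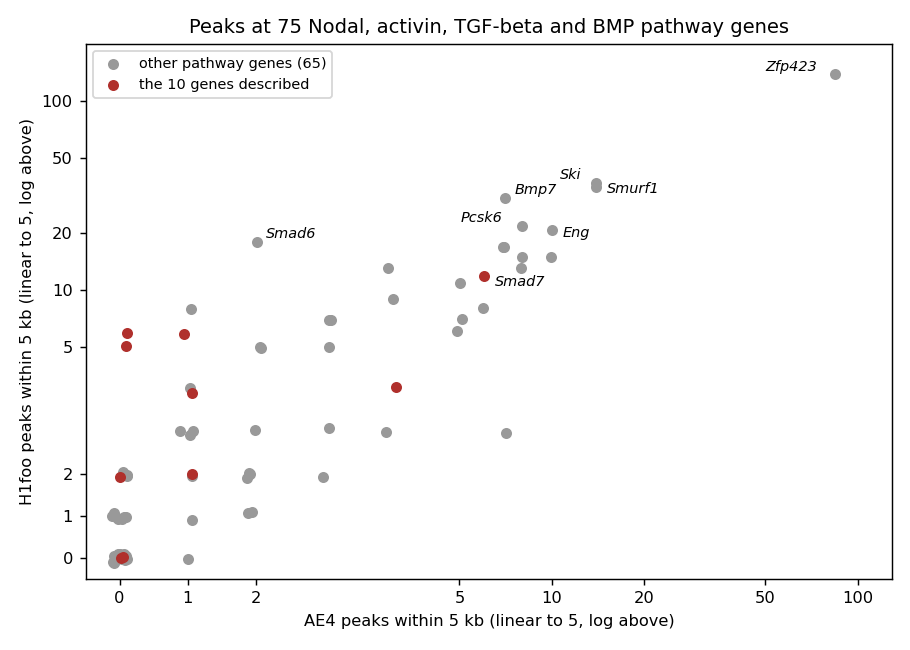
H1foo peaks (vertical axis) against AE4 peaks (horizontal axis) within 5 kb of 75 pathway genes, on axes that are linear up to 5 and logarithmic above, with points shifted slightly at random so that equal values can be seen. The 10 genes described are in red; Zfp423 stands alone with 138 and 84 peaks, and Lefty1 and Id1 have 6 and 5 H1foo peaks at 0 AE4 peaks.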

How the data were processed

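The 4 libraries, 2 per antibody, had been aligned with Bowtie 1.1.2 to mm10, per the submitters' processing notes. The file headers name MACS, without a version, as the peak caller. Neither the pooling of libraries into a list nor a control library is stated in the sources used here. The deposited lists give a score per peak, whose scale the file headers do not name. No value per library was used, so replicate error could not be given.

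Starts were converted to positions counted from 1, after setting the 2 below 0 to 0. Gene spans were RefSeq's on GRCm38.p6, which shares its chromosome coordinates with mm10. A further 113 protein-coding genes on scaffolds were left out. Counting was done in Python 3.11.15 with pandas 2.3.3 and checked against direct enumeration on simulated intervals. The overlap minimum was 1 bp.

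The 10 genes and the wider list were chosen with earlier results of these data known. Beside the 10, genes were named by rule. These were the 5 of the wider list with the most peaks of each antibody, and any with AE4 peaks alone. Genes of that list without peaks were to be named if 8 or fewer. The rule also covered protein-coding neighbours that reach into a window. Of these, Aagab, at Smad3, held no peak in that window. A few more of the wider list, introduced as such in the results, were chosen after their values were seen. The alternatives were windows of 0, 2 and 10 kb, assignment by peak centre, a score at or above the median of the list, an H1foo list as long as the AE4 list, and an overlap of 50% of the shorter peak.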

Additional observations from a re-analysis of the deposited data

How the results depend on the processing

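The 8 counts over the gene groups were recomputed under these alternatives, and 39 of 50 values stayed within 1.5 times the main one. The 8 genes with H1foo peaks became 7 with only the upper part of the list by score, where Smad2 dropped out, and stayed 8 with every window tried. The AE4 count went from 5 to 4 with windows of 0 or 2 kb, where Nodal dropped out, to 4 with scores at or above the list's median, where Smad2 did, and to 6 with 10 kb, where Lefty1 entered. The H1foo peaks at the 10 genes numbered 26 with gene spans alone, 69 with windows of 10 kb, and 23 both with scores at or above the list's median and with the H1foo list cut to the length of the AE4 list. AE4 peaks numbered 6 with scores at or above the median. Shared H1foo peaks numbered 10 with 10 kb and 3 under each of the score and length limits. Shared AE4 peaks numbered 9 with 10 kb and 2 under each of those limits. Bmp4 and Id2 had no peak under any alternative, and Id1 and Id3 no AE4 peak. Among 120 values for single genes, 29 moved by more than 1.5 times. No paired analysis was possible because the lists hold no values per library, and for the same reason no library could be left out. The depth is not known, so no limit of detection can be given for a gene without a peak.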
